A study of Schmidtea mediterranea with 36 samples.

Results

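*activin*, *follistatin* and *activin-receptor-1* are 3 genes of the Activin pathway, a ligand, its antagonist and a receptor, in the planarian *Schmidtea mediterranea*. Their transcripts were found by searching the IDs for those full names. Each name matched 1 transcript (IDs ending in SmedASXL_019422, SmedASXL_012581 and SmedASXL_012597), of 71232 transcripts listed in any table, and all 3 passed the filter on low values at each of the 6 time points. RNA was sequenced from asexual CIW4 planarians after *control(RNAi)* or *alx-3(RNAi)*, with 3 libraries per group in intact animals and at 5 times after amputation, from 0.5 through 6, 24 and 48 to 72 hours post amputation (HPA), which makes 36 libraries. Animals of both groups had been fed double-stranded RNA 9 times. The control RNA was against *GFP*, a gene that planarians lack, and the other was against *alx-3*, a homeobox gene. The amputated libraries hold tail fragments cut posterior to the pharynx, which have to make a new head, and the intact libraries hold whole animals, so body region and injury cannot be told apart between them. RNAi by feeding reaches the whole body, and bulk RNA cannot separate a change in the number of cells of a type from a change in RNA per cell. All values are normalized counts, which are read counts scaled by the authors separately at each time point and not divided by transcript length.

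Activin is a secreted ligand of the TGF-β superfamily. It binds receptor serine/threonine kinases on the cell surface, which phosphorylate Smad proteins of the Smad2/3 type, and these enter the nucleus and regulate transcription. Follistatin is a secreted protein that binds Activin and keeps it from its receptors. In planarians *follistatin* is known as a gene that is expressed at wounds and is needed for head regeneration, and RNAi of *activin* is known to restore regeneration in animals that lack *follistatin*.

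The normalized count of *alx-3* was between 630 and 1230 in the control libraries and between 158 and 364 in the *alx-3(RNAi)* libraries, and the groups overlapped at none of the 6 time points. The level left was 40.8% and 39.2% of control at 0.5 and 6 HPA, and from 23.6% to 29.0% at the other 4. Summed normalized counts ran from 50.9 to 64.9 M in control and from 56.5 to 70.9 M in *alx-3(RNAi)* libraries. Ribosomal RNA took 11.5% to 12.9% and 12.6% to 14.8% of them. Rescaling each library to the same total therefore lowers the *alx-3(RNAi)* group relative to control. The median log2 difference of all tested transcripts was between 0.003 and 0.013 in the deposited scaling and between −0.072 and −0.20 after that rescaling, and higher transcripts made up from 43.4% to 80% of the calls at a time point before it and from 20.4% to 31.5% after.

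The control libraries give the course of each gene after amputation without knockdown. Since the tables were scaled separately, levels across times are given in per-million units, the share that a gene takes of the summed values of its library, as a description without a test. *activin* was lower at 24 and 72 HPA than at 0.5 HPA, *follistatin* was highest at 6 HPA, and *activin-receptor-1* moved little.

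*activin* stood at 51.1, 49.0 and 37.4 per-million units in the 3 control libraries at 0.5 HPA, and at 29.6, 26.6 and 30.7 at 24 HPA. The mean fell from 45.8 ± 7.36 (SD, n = 3) at 0.5 HPA to 29.0 ± 2.14 at 24 HPA, which was 0.63 of the first level. It was 36.9 ± 2.61 at 6 HPA, 33.1 ± 4.31 at 48 HPA and 30.5 ± 1.17 at 72 HPA. The libraries at 24 and at 72 HPA lay below all those at 0.5 HPA, also as deposited and with all 36 libraries scaled together, while those at 6 and 48 HPA overlapped them in each of these scalings. Intact animals had 49.2 ± 4.00 units, the highest mean. In the order intact, 0.5, 6, 48, 72 and 24 HPA, each time point overlapped the next.

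*follistatin* gave 24.8, 29.2 and 24.2 per-million units at 6 HPA, against 18.0, 17.3 and 19.9 at 0.5 HPA. Its mean of 26.1 ± 2.72 at 6 HPA was 1.42-fold the level of 18.4 ± 1.33 at 0.5 HPA, and the 6 HPA libraries lay above the libraries of all 5 other groups of controls. The antagonist then stood at 14.7 ± 0.90 at 24 HPA, 17.3 ± 1.10 at 48 HPA and 15.1 ± 0.48 at 72 HPA, with 16.5 ± 0.90 in intact animals. The libraries at 24 and 72 HPA were below all libraries at 0.5 HPA in each of the 3 scalings. Below 6 HPA in the order of means, each neighbouring pair of time points overlapped.

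*activin-receptor-1*, named as a receptor for the ligand, had means from 76.0 ± 4.45 per-million units at 6 HPA to 88.4 ± 2.43 in intact animals. These ends of the range were 0.92 and 1.08 of the 0.5 HPA mean of 82.2 ± 1.86. Whether the libraries of a time point stood apart from those at 0.5 HPA changed with the scaling at each of the 5 other time points.

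**Figure D1:**
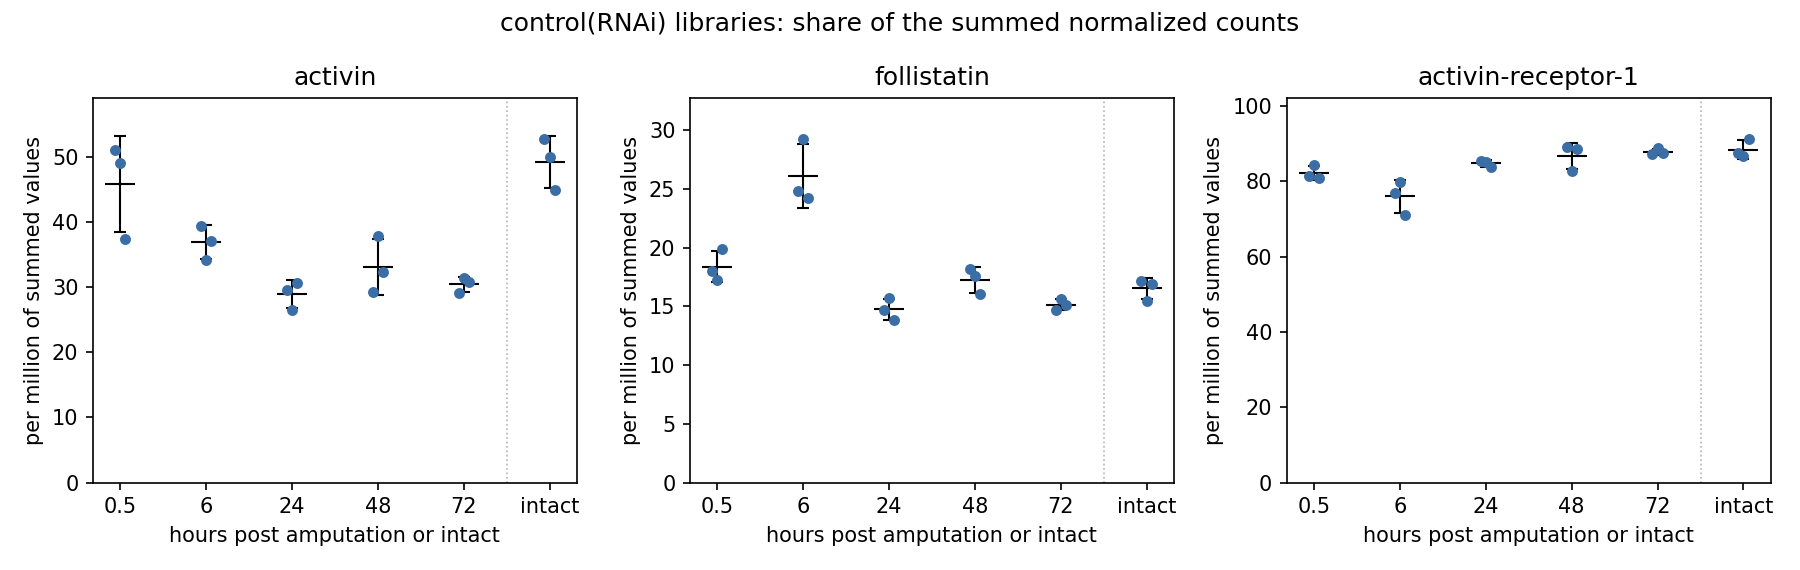
Level of each gene in the control(RNAi) libraries, in per-million units, against time after amputation or in intact animals. Points are libraries, and bars give the mean and SD of 3. *follistatin* peaks at 6 HPA at 26.1 units, and *activin* falls from 45.8 at 0.5 HPA to 29.0 at 24 HPA.

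*activin*, the ligand, was higher after *alx-3* knockdown. Every *alx-3(RNAi)* library had a higher normalized count of *activin* than every control library at all 6 time points, as had 2.45% of the 27959 transcripts tested at all of them. The values at 0.5 HPA were 2597, 2719 and 2081 in controls, against 3728, 3188 and 3603 after knockdown. At 6 HPA they were 2137, 1936 and 2166 in controls and 3648, 2318 and 2996 after knockdown. The lowest *alx-3(RNAi)* library there was just above the highest control, and on the per-million scale that library (38.4) fell below the highest control (39.4), the only time point at which the groups overlapped on that scale.

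At 24 HPA the controls had 1633, 1461 and 1697, against 3265, 2370 and 2759 after knockdown. Values of 1602, 2275 and 2095 stood against 3348, 2990 and 2958 at 48 HPA. The widest separation was at 72 HPA, with 1609, 1786 and 1678 in controls and 3847, 3200 and 3202 after knockdown. The control libraries at 72 HPA were thus below those of 0.5 HPA, whereas the *alx-3(RNAi)* libraries of these time points overlapped each other in all 3 scalings. In intact animals the values were 3084, 2990 and 2381 in controls and 4249, 3279 and 4293 after *alx-3(RNAi)*, the highest of any group. The *alx-3(RNAi)* library numbered 1 was the highest of its group at each of the 5 tail time points, and the one numbered 2 was the lowest in intact animals and at 0.5, 6, 24 and 72 HPA.

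**Figure D2:**
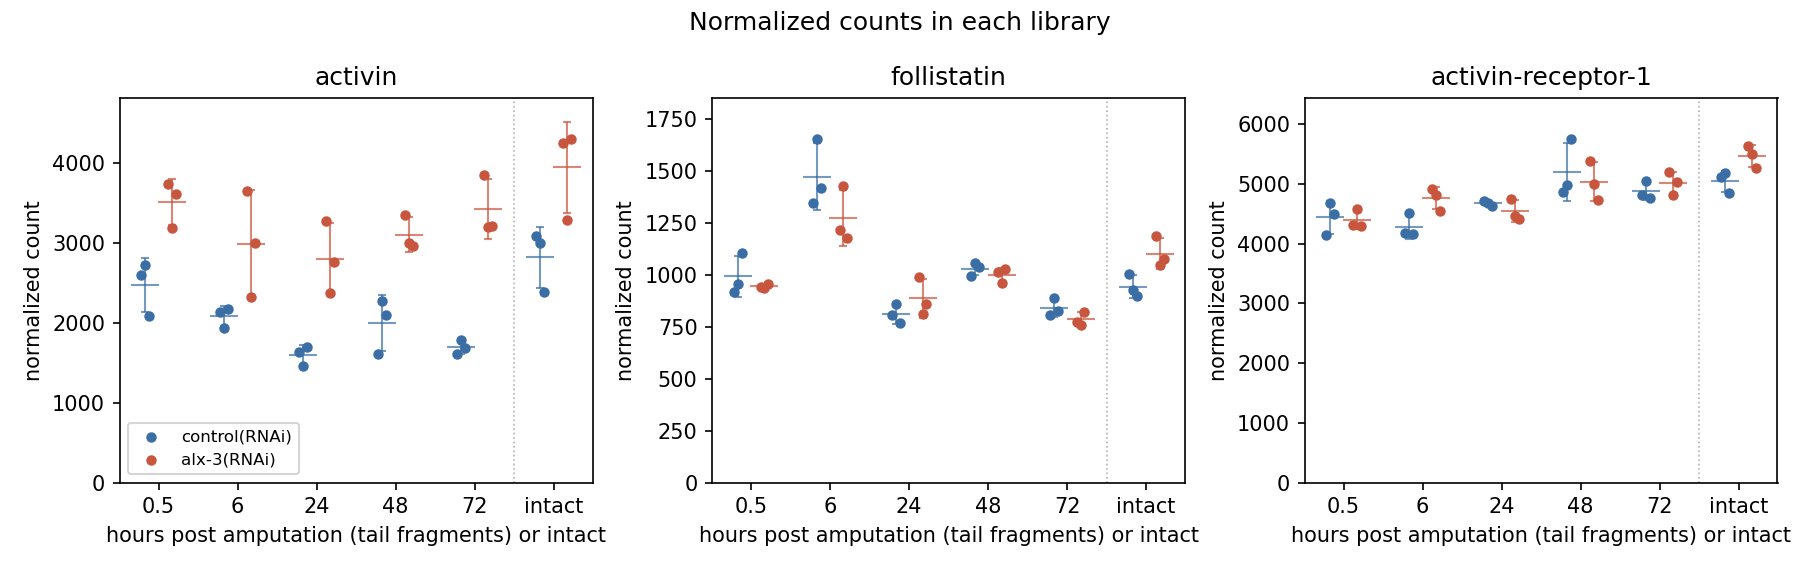
Normalized count of each gene in every library by time point, with control(RNAi) in blue and alx-3(RNAi) in red. Points are libraries, and bars give the mean and SD of 3. Red points for *activin* lie above all blue points at each time point, from 3200 to 3847 against 1609 to 1786 at 72 HPA, while the groups mix for the other genes at most times.

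The ratio of mean *activin* counts, *alx-3(RNAi)* over control, was 1.42, 1.44, 1.75, 1.56 and 2.02 at the tail time points in order, and the intact means were 2818 ± 381 in controls and 3940 ± 573 after knockdown. In limma, with Benjamini-Hochberg adjustment over all transcripts tested, *activin* was called higher at 4 of the 5 tail time points. The log2 difference at 0.5 HPA was 0.51 (SE 0.098, adjusted p = 0.0174), at a time point where 1.24% of transcripts were called higher. At 48 HPA it was 0.65 (SE 0.121, adjusted p = 0.00657), with 2.36% called higher. The difference reached 0.80 (SE 0.102, adjusted p = 0.00126) at 24 HPA, where 4.28% were called higher, and 1.01 (SE 0.0803, adjusted p = 1.34e-06) at 72 HPA, where 10.5% were. At 6 HPA the estimate was 0.50 (SE 0.130, adjusted p = 0.0684), and in intact animals 0.48 (SE 0.124, adjusted p = 0.116), and neither was called, where 1.72% and 0.384% of transcripts were.

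Single libraries decided some of these calls. Without the *alx-3(RNAi)* library numbered 1, the difference was 0.47 (adjusted p = 0.131) at 0.5 HPA and 0.59 (adjusted p = 0.0605) at 48 HPA, and without the one numbered 3 it was 0.49 (adjusted p = 0.117) at 0.5 HPA. Without the one numbered 2 the difference was 0.67 (adjusted p = 0.00348) at 6 HPA and 0.61 (adjusted p = 3.18e-06) in intact animals, both called. The calls at 24 and 72 HPA were kept in each of 15 alternatives at either time point.

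Over the 5 tail time points together, *activin* was higher by 0.69 (95% interval 0.57 to 0.82, adjusted p = 3.16e-10), in a comparison in which 16.8% of transcripts were called higher. With the *alx-3(RNAi)* library numbered 1 left out at all 5, the mean difference was 0.60 (adjusted p = 5.34e-08). The size of the difference was then compared between time points. Any difference among the 6 effects did not pass the test for *activin* (F = 2.25, adjusted p = 0.552, 1.02% of transcripts called), and the effect at 72 HPA exceeded that in intact animals by 0.53 (95% interval 0.12 to 0.93, adjusted p = 0.292). In the deposited scaling no tail time point was called different from intact animals for any of the 3 genes, in contrasts that share the intact libraries. The *follistatin* effect at 72 HPA minus the intact one was called under other scalings, at −0.44 (adjusted p = 0.0484) with each library at the same total and −0.45 (adjusted p = 0.0338) after quantile normalization. One contrast of *follistatin* at 6 HPA, −0.47 (adjusted p = 0.0293), was called without the intact *alx-3(RNAi)* library numbered 2. As deposited, those contrasts called 0%, 0.00265%, 0.0716%, 0.35% and 0.703% of transcripts, from 0.5 to 72 HPA.

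**Figure D3:**
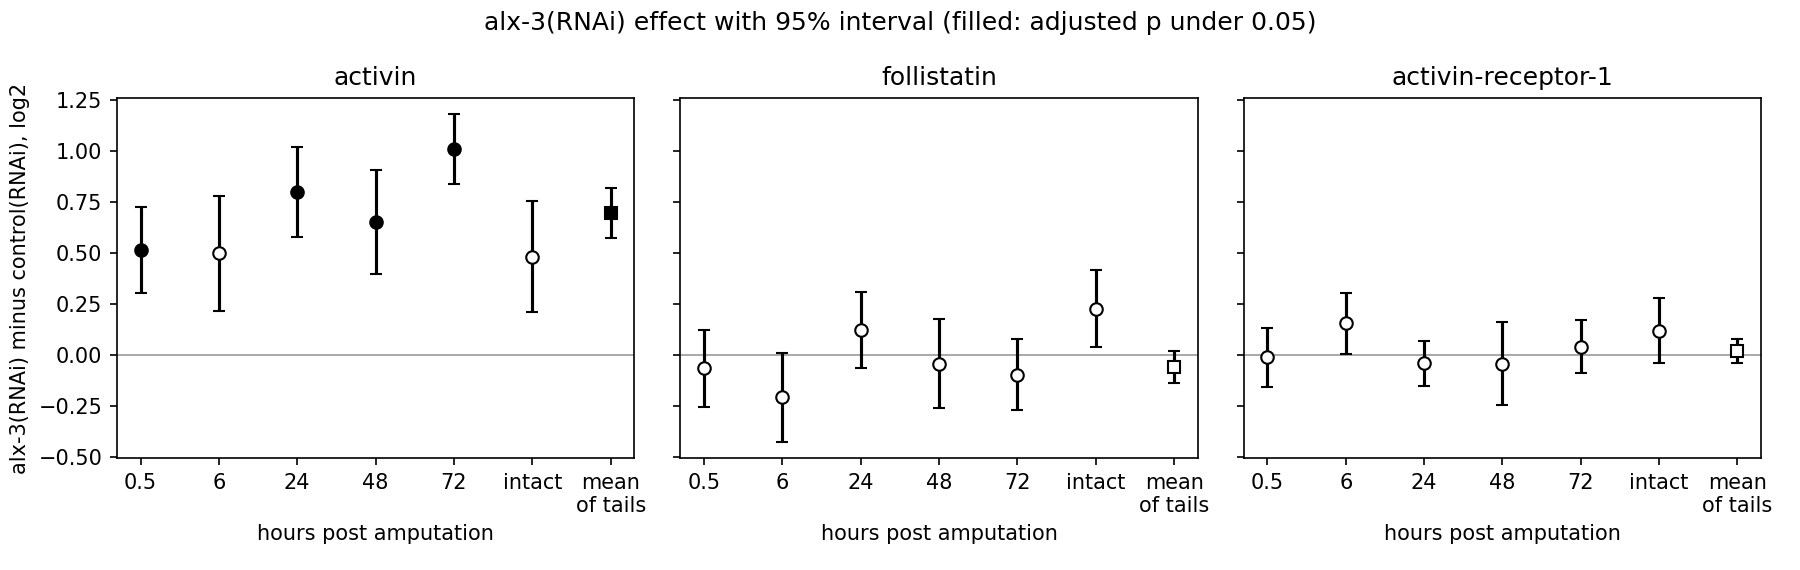
Difference of log2(normalized count + 1), alx-3(RNAi) minus control(RNAi), for each gene at each time point and for the mean over the 5 tail time points (square). Bars are 95% intervals from limma, and filled symbols have an adjusted p under 0.05. All *activin* intervals lie above 0, and no *follistatin* or *activin-receptor-1* symbol is filled.

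*follistatin*, the antagonist, was not called at any time point in the deposited scaling. In either direction, 2.03%, 2.34%, 7.29%, 3.47% and 13.1% of transcripts were called at the tail time points in order and 0.885% in intact animals. The *follistatin* values at 6 HPA, the peak, were 1346, 1653 and 1417 without knockdown and 1214, 1426 and 1178 with it. The groups overlapped in these normalized counts, and the log2 difference was −0.21 (95% interval −0.43 to 0.01, adjusted p = 0.317). At 72 HPA the controls had 809, 887 and 825 and the *alx-3(RNAi)* libraries 773, 759 and 823, also overlapping, with a difference of −0.10 (adjusted p = 0.483). Values in intact animals were 1005, 926 and 897 in controls and 1185, 1045 and 1076 after knockdown. The knockdown libraries were all above the controls there, as were those of 13% of transcripts, and the difference of 0.23 (adjusted p = 0.218) was not called. The differences at 0.5, 24 and 48 HPA were −0.07, 0.12 and −0.04, with adjusted p from 0.487 to 0.883. Over the 5 tail time points the mean difference was −0.06 (95% interval −0.14 to 0.02, adjusted p = 0.288), in a comparison that called 27.2% of transcripts.

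Calls for *follistatin* changed with the scaling. With each library at the same total, where the median transcript moved by −0.20 at 72 HPA, the *follistatin* difference at 72 HPA was −0.30 (adjusted p = 0.00979), and with quantile normalization, where the median transcript moved by −0.01, it was −0.25 (adjusted p = 0.0344). The mean over the tail time points was −0.20 (adjusted p = 9.12e-05) and −0.13 (adjusted p = 0.00678) under these scalings, with the median transcript at −0.15 and 0.01. In the same scalings, 30.6% and 12.6% of transcripts were called lower in that mean, and 12.1% and 5.08% at 72 HPA. *activin* kept its direction in each scaling, with a mean difference of 0.56 at the same total, a fall as large as that of *follistatin*. On the per-million scale all knockdown libraries were below control at 0.5, 6, 48 and 72 HPA. At 6 HPA they had 18.6 to 23.6 units against 24.2 to 29.2 in controls. The same held for 17.9%, 19.3%, 22.4% and 29.2% of all transcripts at 0.5, 6, 48 and 72 HPA. In *alx-3(RNAi)* tails *follistatin* was also highest at 6 HPA, at 1.25-fold the per-million level of 0.5 HPA, above all libraries of 0.5 HPA in each of the 3 scalings. Set beside the 1.42-fold of controls, the *alx-3(RNAi)* effect was −0.07 at 0.5 HPA and −0.21 at 6 HPA. A difference of the effect among the 6 time points was not called as deposited (F = 3.34, adjusted p = 0.332) but passed under both other scalings (adjusted p = 0.0443 and 0.0303).

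*activin-receptor-1* had normalized counts from 4136 to 5748 in the 36 libraries and in the deposited scaling was not called at any time point. Its log2 differences were −0.01, 0.15, −0.04, −0.04 and 0.04 at 0.5 to 72 HPA and 0.12 in intact animals, with adjusted p from 0.278 to 0.953. In that scaling the groups did not overlap at 6 HPA, where controls had 4171, 4519 and 4160 and *alx-3(RNAi)* libraries 4920, 4822 and 4552, nor in intact animals, with 5118, 5174 and 4840 against 5639, 5506 and 5272. *alx-3(RNAi)* libraries were all above control for 14.5% and 13% of transcripts at these time points. Over the tail time points the mean difference was 0.02 (95% interval −0.04 to 0.08, adjusted p = 0.668). At the same total it was −0.12 (adjusted p = 3.94e-05), against −0.15 for the median transcript, with 30.6% of transcripts called lower. With quantile normalization it was −0.055 (adjusted p = 0.0263), with the median transcript at 0.01 and 12.6% of transcripts called lower. The direction of this small difference changed between scalings, and in the deposited scaling also on leaving out the *alx-3(RNAi)* libraries numbered 1 or 6 HPA. At the same total the receptor was also called lower at 48 HPA (−0.20, adjusted p = 0.0428) and 72 HPA (−0.17, adjusted p = 0.0315). The median transcript moved by −0.15 and −0.20 there, and 5.84% and 12.1% of transcripts were called lower. On the per-million scale the groups overlapped at 6 HPA and in intact animals, and all *alx-3(RNAi)* libraries were below control at 0.5, 24, 48 and 72 HPA, as were those of 17.9%, 20.7%, 22.4% and 29.2% of transcripts.

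Replicates of the receptor also lay closest together. The coefficient of variation within a group of 3 libraries had a median of 3.90% over the 12 groups, against 5.89% for *follistatin* and 12.2% for *activin*. The widest for *activin* was 22.3%, in *alx-3(RNAi)* at 6 HPA, the tail time point where the difference was not called.

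A ratio of genes within a library does not depend on how the library was scaled, so it can be followed across the tables. Only its changes are read here, since counts of different genes also depend on transcript length. In control tails the log2 ratio of *activin* over *follistatin* was 1.31 ± 0.34 (SD, n = 3) at 0.5 HPA and 0.50 ± 0.24 at 6 HPA, and it was 0.97 ± 0.20, 0.93 ± 0.22 and 1.01 ± 0.02 at 24, 48 and 72 HPA. Intact controls had 1.57 ± 0.15. The ratio of ligand to antagonist was therefore lowest at 6 HPA, where the 3 control libraries, from 0.23 to 0.67, lay below all other control libraries.

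After *alx-3(RNAi)* the same ratio was 1.89 ± 0.11, 1.21 ± 0.46, 1.65 ± 0.09, 1.63 ± 0.10 and 2.12 ± 0.18 at the 5 tail time points. All *alx-3(RNAi)* libraries were above all controls at each of them, and the differences were 0.58, 0.71, 0.68, 0.69 and 1.11. In intact animals the groups overlapped, at 1.57 in controls and 1.83 ± 0.17 after knockdown. Exact permutation tests (two-sided) had p = 0.1 at each tail time point, the smallest that 3 against 3 libraries allow, and p = 0.2 in intact animals. Adjusted over the 18 combinations of ratio and time point, these were 0.164 and 0.24, so no ratio could pass a threshold of 0.05.

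*activin* over *activin-receptor-1* had its lowest control mean at 24 HPA instead. It was −0.86 ± 0.23 at 0.5 HPA, −1.04 ± 0.16 at 6 HPA, −1.55 ± 0.12 at 24 HPA, −1.40 ± 0.24 at 48 HPA and −1.53 ± 0.05 at 72 HPA, and the controls of the last 3 overlapped each other. After knockdown it was −0.71 ± 0.19 at 24 HPA and −0.56 ± 0.11 at 72 HPA. The groups stood apart at 0.5, 24, 48 and 72 HPA and overlapped at 6 HPA and in intact animals. *follistatin* over *activin-receptor-1* rose in controls from −2.16 ± 0.13 at 0.5 HPA to −1.54 ± 0.09 at 6 HPA, and was −2.52 ± 0.08 at 24 HPA. At 6 HPA this ratio was lower after *alx-3(RNAi)*, at −1.91 ± 0.14, with all 3 libraries below the controls (exact permutation p = 0.1, adjusted 0.164). It was also lower at 72 HPA, at −2.67 ± 0.07 against −2.54 ± 0.03, without overlap.

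Time was tested on the 15 control tail libraries, by permuting the libraries over the 5 time points (100000 resamples) and comparing the spread of the means. It passed for all 3 ratios, with adjusted p = 0.0117 for *activin* over *follistatin*, 0.00606 for *activin* over *activin-receptor-1* and 0.00015 for *follistatin* over *activin-receptor-1*.

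**Figure D4:**
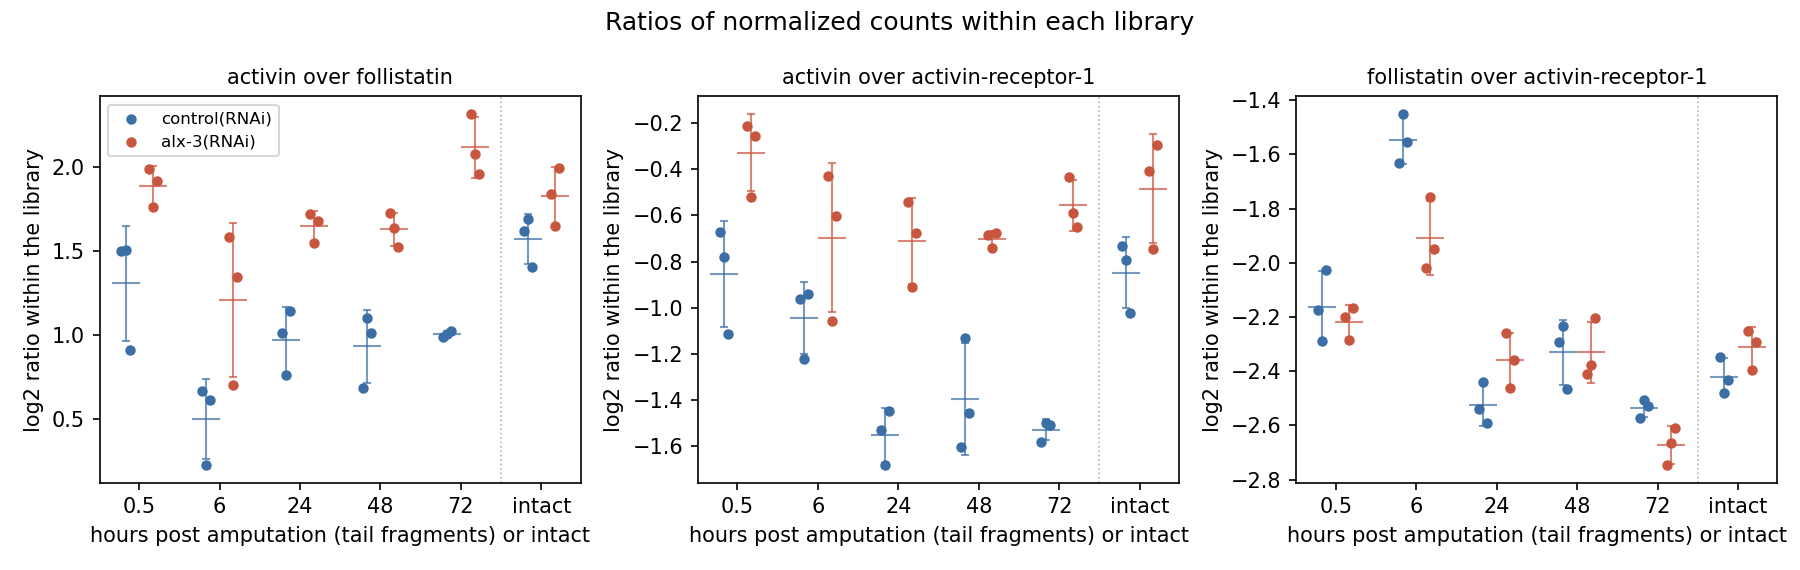
Log2 ratio of the normalized counts of each pair of genes within a library, by time point, with control(RNAi) in blue and alx-3(RNAi) in red. Points are libraries, and bars give the mean and SD of 3. *activin* over *follistatin* is lowest at 6 HPA in controls, at 0.50, and the red points lie above the blue ones at all tail time points.

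The other genes of the pathway were sought in the IDs with a list of TGF-β ligands, receptors, Smads and antagonists, which matched 5 names including these 3. *smad23*, the intracellular transducer of Activin signals, had means from 3283 to 3999 in controls and from 3265 to 4000 after knockdown. Its log2 differences ran from −0.02 to 0.06 with adjusted p of at least 0.731. *nlg4*, a *noggin*-like gene related to secreted antagonists of BMP ligands, had at most 10.3 in any library at 0.5, 24 and 72 HPA. It was not listed at 6 HPA, at 48 HPA or in intact animals, so no value is known there, and it passed the filter at no time point. Of the 4 members tested, *activin* alone was called in the deposited scaling, at 0.5, 24, 48 and 72 HPA. At these time points 1.24%, 4.28%, 2.36% and 10.5% of all transcripts were called higher. The median difference of the 4 members ran from −0.02 to 0.17, against 0.003 to 0.013 over all transcripts.

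The genes whose pattern was most like each member were picked among 244 named transcripts, by the root mean square difference of centred log2 profiles over the 12 groups. Those nearest to *activin*, whose own profile had a spread of 0.35, were *ALAS* (0.13), which encodes an enzyme of heme synthesis, *pXW0030* (0.16) and *KMO-1* (0.17), which encodes an enzyme of tryptophan breakdown. *follistatin*, with a spread of 0.25, was nearest to *spondin* (0.16), to *hesl-1* (0.18), a transcription factor of the *hairy* family, and to the receptor gene *Notch-1* (0.20). *activin-receptor-1* had a spread of 0.094 and was nearest to the homeobox gene *NKX2.1* (0.040), to *smad23* (0.046) and to *INSR* (0.055), the insulin receptor. These distances describe 12 groups that share libraries among genes, and carry no test.

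Markers of other cell types moved in the same libraries. Of 24 named epidermal progeny markers, 10, 14, 15, 12 and 21 were called higher after *alx-3(RNAi)* at 0.5 to 72 HPA and 6 in intact animals, where 1.24%, 1.72%, 4.28%, 2.36%, 10.5% and 0.384% of all transcripts were, and 2 were lower at 24 HPA. The median difference of these markers ran from 0.34 to 0.50. Their summed level at 72 HPA was 3588 to 3684 per-million units in controls and 4099 to 4287 after knockdown. Of 6 markers of parenchyma and pigment cells, 2, 2, 3, 2 and 5 were called higher at 0.5 to 72 HPA and 0 in intact animals, beside the same shares of all transcripts, with sums of 4776 to 4844 and 5093 to 5276 per-million units at 72 HPA. Of 9 markers of neoblasts, the stem cells of planarians, 1 was higher at 6 and at 48 HPA, 1 was lower at 24 HPA, 2 were higher and 1 lower at 72 HPA, and 0 were called at 0.5 HPA and in intact animals, beside 2.34%, 3.47%, 7.29%, 13.1%, 2.03% and 0.885% of all transcripts called in either direction at these time points. Their sum was higher after knockdown at 0.5 HPA, with 2369 to 2437 per-million units against 2291 to 2351. It was lower at 24, 48 and 72 HPA, with 4158 to 4385 in controls and 3374 to 3650 after knockdown at 72 HPA. The groups overlapped at 6 HPA and in intact animals. At the same total, the median log2 difference of all tested transcripts was −0.08, −0.15 and −0.20 at 24, 48 and 72 HPA. In the deposited scaling the median difference of the 9 neoblast markers was −0.06, −0.002 and −0.07 at these time points. The lists of muscle, neural and gut markers matched only 1 gene each. The muscle gene *titin* was called lower at 0.5, 6, 24 and 72 HPA, where 0.794%, 0.621%, 3.01% and 2.62% of all transcripts were called lower. The neural gene *COE* was called lower at 24 HPA. *NXK2.2*, of the gut, was called higher at 72 HPA, where 10.5% of all transcripts were. No marker of these lists was at 0 in all libraries of a time point, and no marker of pharynx or protonephridia was named in the IDs. The part of these cell types in the *activin* difference was not tested.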

How the data were processed

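Normalized counts were deposited by the authors as 1 signal table per time point. Per the methods, 50 bp paired reads of biological triplicates were trimmed with Trimmomatic 0.39, quantified against the Smed_ASXL transcriptome with Salmon 1.4.0 and scaled with DESeq2 1.30.1. The header names the values RPKM, but each transcript's mean equals the mean normalized count in the deposited tables of comparisons, which also hold log2 fold changes and p-values of the authors, not used here. The methods give an approximate depth per sample, and the depth of each library is known here only as summed normalized counts.

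Groups were compared on log2(normalized count + 1), separately at each time point, by limma 3.58.1 (R 4.3.3, two-sided, empirical Bayes with a trend), for transcripts of at least 10 in at least 3 of 6 libraries. Calls had a Benjamini-Hochberg adjusted p under 0.05. Mean effects and differences between time points came from joint fits with 1 mean per group. Folds on this scale understate changes of low transcripts. Permutation tests used scipy 1.17.1. The fits were tested on simulated data. Named genes were the 3 members, *alx-3*, the TGF-β list and the 3 named transcripts nearest to each member. The members and lists were chosen with earlier results of these data known. Same-numbered libraries did not deviate together, so no pairing was used. Alternatives were other pseudocounts, filters and scalings, 1 fit over 36 libraries, a replicate block, and leaving out libraries or time points. A count model was not run, since the values did not give back whole reads.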

Additional observations from a re-analysis of the deposited data

Results flagged for a closer look

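The *alx-3* transcript itself changed by different amounts among the 6 time points (limma, F = 6.22, adjusted p = 0.0412, 1.02% of transcripts called). Its log2 difference was −1.30 and −1.35 at 0.5 and 6 HPA, −2.07, −1.84 and −1.80 at 24, 48 and 72 HPA, and −2.08 in intact animals. Of 41 alternatives, 19 gave an adjusted p above the threshold, up to 0.0952, all of them with 1 library left out.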

How the results depend on the processing

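Scaling and single libraries changed the most. At 0.5 HPA the *activin* difference was 0.48 (adjusted p = 0.0514) with quantile normalization and 0.40 to 0.59 with each library left out. At 6 HPA the unchanged estimate of 0.50 was called with no filter, with a replicate block (adjusted p = 0.00836) and in one fit over 36 libraries, with 0.34 to 0.67 when leaving out libraries. Ranges without each library were 0.50 to 0.76 at 48 HPA and 0.37 to 0.61 in intact animals, where 1 fit over 36 libraries called the estimate of 0.48. *follistatin* at 72 HPA was −0.30, −0.27 and −0.25 at the same total, at the same total without ribosomal RNA and with quantile normalization, all called lower, as was its tail mean, at −0.20, −0.17 and −0.13. These scalings called 12.1%, 9.66% and 5.08% of transcripts lower at 72 HPA, and 30.6%, 26.5% and 12.6% in the tail mean. The *follistatin* F among time points was 5.87 and 6.34 (adjusted p = 0.0443 and 0.0303) at the same total and with quantile normalization. Its 72 HPA effect minus the intact one was −0.44 and −0.45, both called. *activin-receptor-1* was −0.20 (adjusted p = 0.0428) at 48 HPA at the same total, where 5.84% of transcripts were called lower. Its difference at 72 HPA turned to −0.17 (called), −0.14 and −0.10 under the 3 scalings, and its tail mean to −0.12, −0.097 and −0.055, all called lower, to −0.0046 without the *alx-3(RNAi)* libraries numbered 1 and to −0.014 without 6 HPA. Leaving out libraries gave −0.062 to 0.027 (0.5 HPA) and −0.093 to 0.031 (48 HPA) for the receptor, and −0.12 to 0.012 (0.5 HPA) and 0.17 to 0.27 (intact, called without the *alx-3(RNAi)* library numbered 2) for *follistatin*. Against intact animals, the *activin* effect at 0.5 HPA turned to −0.0053 with quantile normalization, with −0.095 to 0.15 on leaving out libraries, and at 6 HPA to −0.038 and −0.068 at the same total and with quantile normalization, with −0.14 to 0.19. The receptor difference at 6 HPA turned to −0.019 and −0.025, and that of *follistatin* ran from −0.52 to −0.35, called without the intact *alx-3(RNAi)* library numbered 2. In controls, log2 changes from 0.5 HPA moved as deposited to 0.054 for *follistatin* at 48 HPA and to 0.23, 0.14 and 0.18 for the receptor at 48 HPA, 72 HPA and in intact animals, and, with all libraries scaled together, to 0.14 and 0.040 for the receptor at 24 and 72 HPA. The cause of these changes was not tested. Same-numbered libraries share only a number, at no time point did the highest correlation of deviations fall between libraries of one number, and the block changed no other call. Leaving out the libraries numbered 1, each tail time point, ribosomal RNA for the tail mean, or transcripts not passing the filter throughout was chosen after seeing the data. With 3 libraries per group, differences that were not called did not pass the adjustment over all transcripts tested. At single time points as deposited, some of them had wholly positive limma intervals, which are not adjusted. For *activin* these were 0.22 to 0.78 at 6 HPA and 0.21 to 0.76 in intact animals. They were 0.036 to 0.41 for *follistatin* in intact animals and 0.0047 to 0.30 for the receptor at 6 HPA. The other uncalled differences of the 3 genes there had intervals from negative to positive, and could not be told from replicate spread.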
